A study of Mus musculus with 12 samples.

Results

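The transcripts described here are 10 genes of the interleukin-1 (IL-1) family and its control, out of 55450 genes counted in cultured mouse type II alveolar epithelial (AT2) cells. They were chosen by name as genes of this family, with earlier results of these data known. They are the cytokines *Il1a*, *Il1b*, *Il33* and *Il18*, the protease gene *Casp1*, the inhibitor *Il1rn*, and the receptor genes *Il1r1*, *Il1r2*, *Il1rl1* and *Il1rap*. All 10 passed the filter on low counts and were among the 20612 genes tested. AT2 cells came from young adult C57BL/6 mice of 2 genotypes. All mice carried the floxed aryl hydrocarbon receptor gene (AhR f/f). The Sftpc-Cre;AhR f/f mice, called Sftpc-Cre below, also carried Cre recombinase driven from the promoter of the surfactant protein C gene, so that the deletion is directed to cells which use that promoter. Digested lungs were depleted, with antibodies and magnetic beads, of cells bearing CD45, CD16/32, Ter119 or Sca-1, and the remaining cells were grown on collagen I. They then received either PBS or 50 µg/ml cockroach extract (CRE), the allergen source of the study, for 24 h. Each of the 4 groups has 3 libraries. The labels number the libraries 1 to 3 in each group but do not say whether they came from separate animals or cultures, so the p-values below measure the spread between these libraries only.

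IL-1α, IL-1β and IL-33 are cytokines of barrier defence. IL-1α and IL-33 are held in the nucleus of epithelial cells and act as alarmins once a cell is injured, while IL-1β and IL-18 are made as precursors that caspase-1 cuts inside the inflammasome. IL-1α and IL-1β signal through IL-1R1, IL-33 through ST2 (the product of *Il1rl1*), and both receptors pair with the accessory chain IL-1RAcP to recruit MyD88 and activate NF-κB. IL-1Ra (from *Il1rn*) and the decoy receptor IL-1R2 hold the pathway back. In the lung, IL-33 from AT2 cells is known as an activator of group 2 innate lymphoid cells in allergic inflammation.

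Total counts ranged from 68878065 to 80935797 per library. *Ahr* itself stood at 42.9 to 56.2 CPM (counts scaled to the effective library size) in AhR f/f cells and at 37.7 to 51.5 CPM in Sftpc-Cre cells, and a count over the whole gene does not show the loss of a floxed part. *Cyp1b1*, a classical AhR target, was at 344 to 465 CPM in AhR f/f cells and 31.8 to 63.9 CPM in Sftpc-Cre cells (log2 fold change over both treatments -3.14, adjusted p = 2.36e-05, edgeR). AT2 identity rested on *Sftpc* at 3086 to 6492 CPM, but *Scgb1a1*, the secretory protein gene of club cells, was also counted at 3959 to 8069 CPM. CPM is not scaled to transcript length, so these ranges do not rank the genes. CD45 (*Ptprc*), against which the cells had been selected, was still counted in all 12 libraries. The summed level of 9 leukocyte markers was highest in library 1 of each group. In AhR f/f cells it was 346, 58.0 and 17.4 CPM in PBS libraries 1, 2 and 3, and 303, 56.1 and 12.9 CPM with CRE. In Sftpc-Cre cells it was 268, 53.3 and 84.7 CPM with PBS, and 254, 53.1 and 77.0 CPM with CRE. Libraries 1 therefore stood apart in their leukocyte transcripts, and the results below are also given without them where that changes a call.

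To compare members with each other, the deposited FPKM values, which are per kilobase of transcript, were used. *Il33* was the most abundant member, with a mean level of 8.86 FPKM over the 12 libraries, above 83.9% of the 32083 genes with a count. *Il1r1* (3.65 FPKM) and *Il1b* (3.60 FPKM) followed, and then *Casp1* (2.00 FPKM), *Il1a* (1.87 FPKM), *Il1rn* (1.45 FPKM), *Il18* (1.43 FPKM), *Il1rap* (1.01 FPKM), *Il1rl1* (0.939 FPKM) and *Il1r2* (0.205 FPKM). In AhR f/f cells with PBS, *Il33* lay between 4.20 and 6.55 FPKM and *Il1r1* between 3.14 and 3.9 FPKM, so that these neighbours did not overlap. In Sftpc-Cre cells with PBS they did, at 3.43 to 6.19 FPKM for *Il33* and 3.46 to 5.62 FPKM for *Il1r1*. Among AhR f/f PBS libraries the next members down the order overlapped, since *Casp1* reached 3.36 FPKM and *Il1b* 3.27 FPKM in library 1. With CRE, *Il1b* moved to second place in both genotypes, but its range of 0.521 to 10.6 FPKM in AhR f/f cells overlapped that of *Il33* (9.93 to 16.8 FPKM) above it and that of *Il1a* (0.614 to 7.57 FPKM) below it.

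The first question was whether cockroach extract changed the IL-1 cytokines. The levels of *Il1a* (chr2:129299610-129309972, minus strand, GRCm38), the alarmin gene, were 4.95, 0.401 and 0.168 CPM in AhR f/f PBS libraries 1, 2 and 3, and 16.3, 2.31 and 1.38 CPM with CRE. Sftpc-Cre cells had 1.61, 0.742 and 0.583 CPM with PBS and 12.0, 4.30 and 3.99 CPM with CRE. Library 1 was the highest of each group, and within AhR f/f cells the PBS library 1 exceeded CRE libraries 2 and 3, so the groups overlapped there. They did not overlap in Sftpc-Cre cells, as for 11.8% of all genes in either direction. Between libraries of the same number, *Il1a* was higher with CRE in 6 of 6 pairs, by 3.3-fold to 8.25-fold.

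*Il1b* (chr2:129364570-129371139, minus strand), which encodes the inflammasome-dependent cytokine IL-1β, lies 54597 bases from *Il1a*. Its levels in AhR f/f libraries 1, 2 and 3 were 6.86, 1.10 and 0.361 CPM with PBS and 22.0, 6.88 and 1.15 CPM with CRE. The Sftpc-Cre libraries had 7.14, 1.52 and 1.51 CPM with PBS and 28.2, 8.27 and 5.78 CPM with CRE. As for *Il1a*, library 1 was the highest of each group, and the PBS and CRE groups overlapped in both genotypes. CRE over PBS was 3.20-fold to 6.25-fold across the 6 pairs, and higher in all 6.

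*Il33* (chr19:29925114-29960718, plus strand), the second alarmin, behaved differently across libraries. It was counted at 13.3, 21.5 and 20.5 CPM in AhR f/f PBS libraries 1, 2 and 3 and at 31.3, 54.8 and 51.0 CPM with CRE. In Sftpc-Cre cells it was at 10.7, 15.2 and 20.0 CPM with PBS and at 25.5, 35.8 and 44.6 CPM with CRE. Library 1 was the lowest of each group, and every CRE library stood above every PBS library in both genotypes. Of all genes, 16.5% separated in this way, in either direction, in AhR f/f cells and 11.8% in Sftpc-Cre cells. The ratio of CRE to PBS was nearly the same in every pair, from 2.23 to 2.55. In bulk RNA such a difference cannot be told apart from a change in the number of cells that express the gene.

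**Figure D1:**
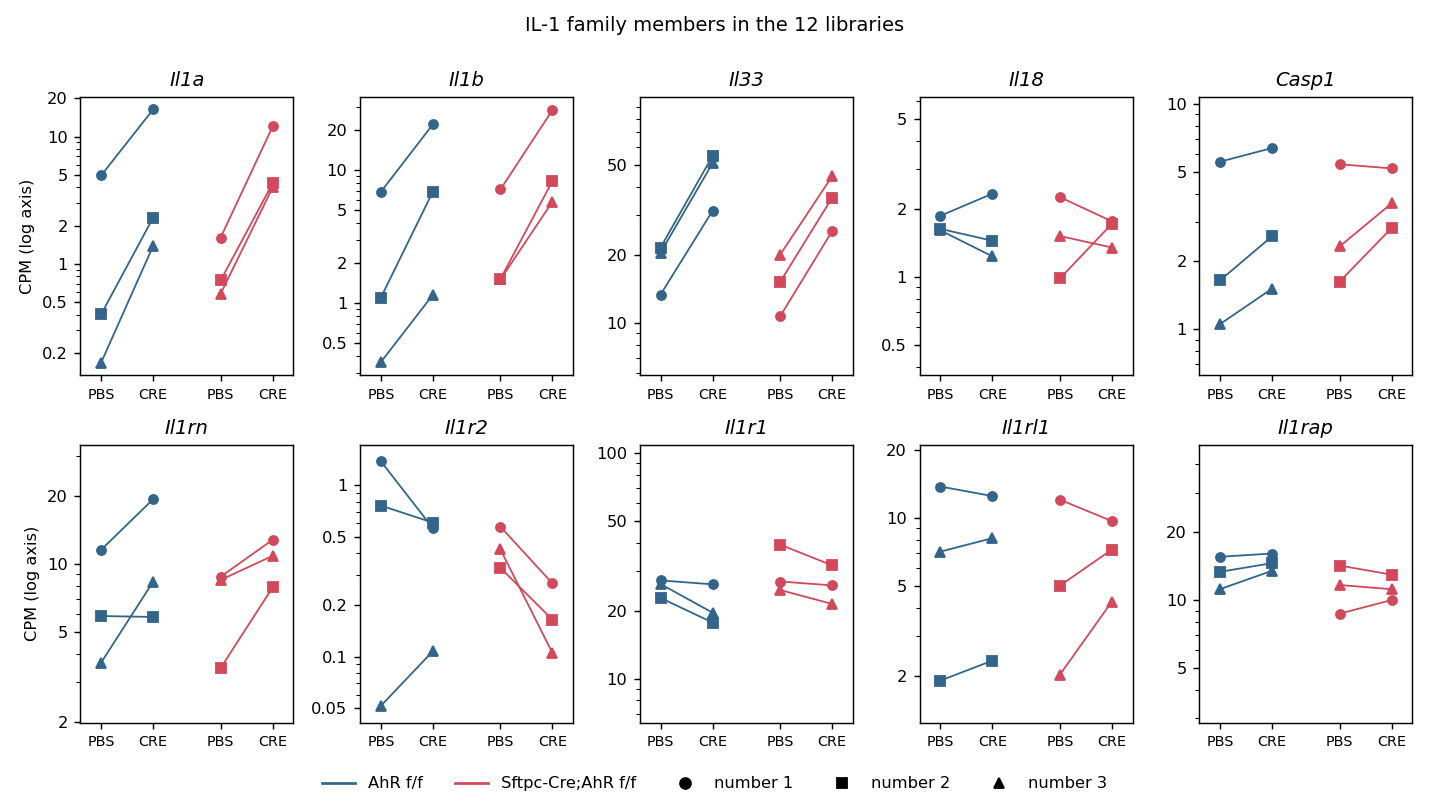
Level of each of the 10 genes in the 12 libraries (y axis, CPM on a log axis), with PBS and CRE libraries of the same number joined by a line, AhR f/f in blue and Sftpc-Cre in red; the shape of a point gives the library number. The lines of *Il1a*, *Il1b* and *Il33* rise in all 6 pairs, and library 1 is the highest of each group for *Il1a*, *Il1b* and *Casp1* and the lowest for *Il33*.

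The test of group means gave few calls. By edgeR (quasi-likelihood F, Benjamini-Hochberg over all 20612 genes), 0 of 10 members passed 0.05 for CRE against PBS in AhR f/f cells, where 0.233% of all genes did, and 0 of 10 in Sftpc-Cre cells, where 0.262% did. At an unadjusted p below 0.05 the counts were 1 (*Il33*) and 2 (*Il1a* and *Il33*) against 9.36% and 6.48% of all genes. DESeq2 called *Il33* in each genotype, against 1.98% and 1.23% of all genes, and over both, against 3.59%. Under the study's own rule (limma-trend, a log2 fold change beyond 0.5 in size at an unadjusted p below 0.05), *Il33* was called in AhR f/f cells against 4.11% of all genes, and *Il1a* and *Il33* in Sftpc-Cre cells against 3.38%. Over both genotypes together that rule called *Il1a*, *Il1b* and *Il33*, against 4.02%, and an unadjusted p below 0.05 in edgeR took the same 3, against 11.1%. After adjustment edgeR called 1 of 10 members, against 1.1% of all genes. This was *Il33*, whose log2 fold change was 1.26 ± 0.21 (SE; adjusted p = 0.0197). The adjusted p rose to between 0.0518 and 0.0590 when AhR f/f PBS library 3, AhR f/f CRE library 2 or 3, Sftpc-Cre PBS library 2 or Sftpc-Cre CRE library 3 was left out, so the call rested on each of these. The same difference was 2.32 ± 0.87 for *Il1a* (adjusted p = 0.337) and 1.95 ± 0.87 for *Il1b* (adjusted p = 0.437), wide intervals that carry the spread between library 1 and the others.

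PBS and CRE libraries of the same number deviated together from their group means in both genotypes, so a paired fit was also run. The labels do not say that equal numbers share an animal or preparation, and the pairing was inferred from these same data. With pairing within genotype, edgeR called 3 of 10 members in AhR f/f cells, 3 of 10 in Sftpc-Cre cells and 3 of 10 over both, against 3.63%, 2.13% and 6.59% of all genes. They were *Il1a*, *Il1b* and *Il33* in each case, all higher with CRE. At an unadjusted p below 0.05, 5 members passed in each genotype and 6 over both, against 18.9%, 14.1% and 20.3% of all genes. *Il1a* rose by a log2 fold change of 2.33 ± 0.25 in AhR f/f cells (adjusted p = 0.00748) and 2.74 ± 0.25 in Sftpc-Cre cells (adjusted p = 0.00415). *Il1b* rose by 2.01 ± 0.22 (adjusted p = 0.00794) and 2.12 ± 0.21 (adjusted p = 0.00599), respectively. *Il33* rose by 1.3 ± 0.06 (adjusted p = 0.000646) and 1.22 ± 0.06 (adjusted p = 0.00085). Over both genotypes the paired fold changes were 5.79 for *Il1a*, 4.18 for *Il1b* and 2.39 for *Il33*, and the median log2 fold change of the 10 members was 0.36 beside -0.000987 for all genes. An exact permutation test that flips the sign of the 6 pair differences gave p = 0.03125 for each of the 3 genes, two-sided and unadjusted, which is the smallest value that 6 pairs allow. The share of all genes that reach this value was not computed. Without the 4 libraries numbered 1, the paired fit still called *Il33* and *Il1a* in each genotype. In that fit 139 of all genes were called in AhR f/f cells, 115 in Sftpc-Cre cells and 449 over both genotypes. Without these libraries *Il1b* was called over both genotypes (log2 fold change 2.19, adjusted p = 0.0229) but not in AhR f/f cells (2.20, adjusted p = 0.0817) or Sftpc-Cre cells (2.18, adjusted p = 0.0951) alone. *Il1a* lost its call in AhR f/f cells when pair 2 of that genotype was left out (2.23, adjusted p = 0.0636).

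**Figure D2:**
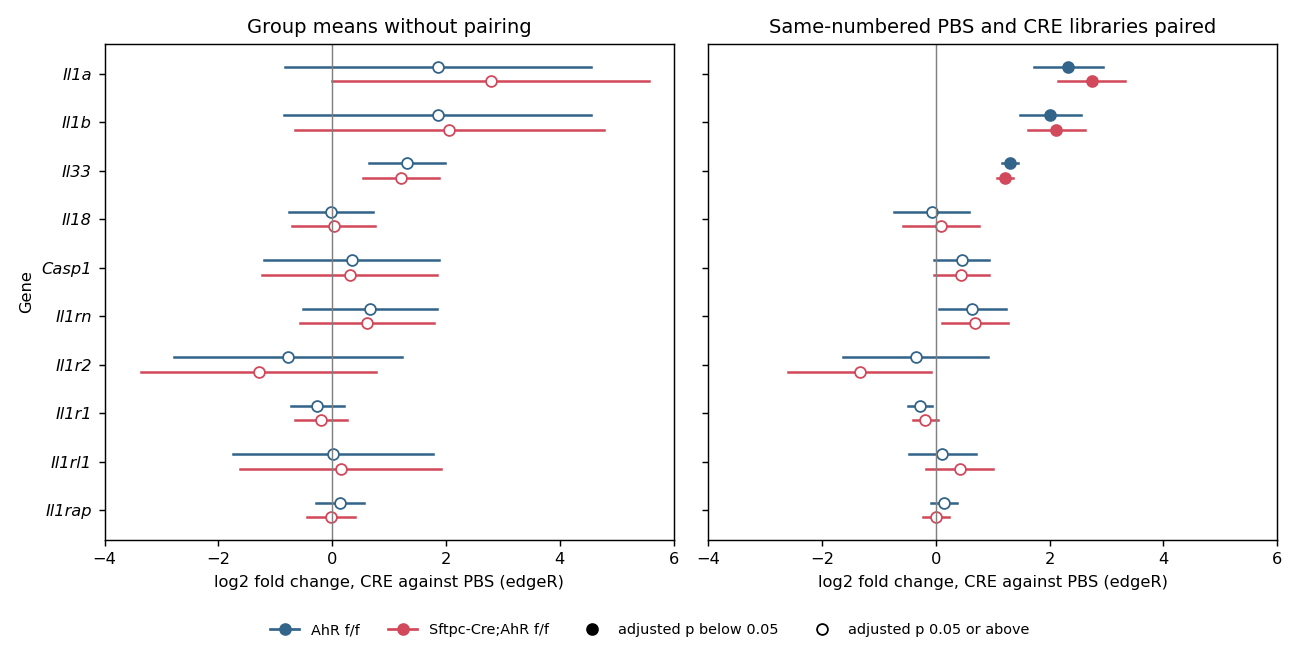
Log2 fold change of CRE against PBS (x axis) for each gene (y axis) in AhR f/f cells (blue) and Sftpc-Cre cells (red), from edgeR, with 95% intervals as bars; filled points passed an adjusted p of 0.05. On the left, without pairing, no point is filled; on the right, with same-numbered libraries paired, *Il1a*, *Il1b* and *Il33* are filled in both genotypes and the intervals of the 2 genotypes overlap for every gene.

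Because *Il1a*, *Il1b* and *Il33* moved together under CRE, the 250 bases upstream of their RefSeq start sites (GRCm38.p6) are shown. Those of *Il1rap* are shown as well, since its genotype groups did not overlap under CRE. That pattern was seen for 11% of all genes, and the *Il1rap* difference did not pass the edgeR test (adjusted p = 0.908). The sequences read 5′ to 3′ on the strand of the gene. Capitals mark matches on either strand to an NF-κB motif (GGG, any 5 bases, CC), TGANTCA (AP-1) or GCGTG (the core that AhR binds), where N is any base. RefSeq gives *Il33* a pair of start sites, and both windows are shown.
Il1a: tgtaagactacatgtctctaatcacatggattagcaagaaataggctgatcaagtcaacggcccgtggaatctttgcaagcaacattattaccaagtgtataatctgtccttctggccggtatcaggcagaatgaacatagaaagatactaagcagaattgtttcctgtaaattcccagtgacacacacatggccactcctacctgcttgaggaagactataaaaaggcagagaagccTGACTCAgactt
Il1b: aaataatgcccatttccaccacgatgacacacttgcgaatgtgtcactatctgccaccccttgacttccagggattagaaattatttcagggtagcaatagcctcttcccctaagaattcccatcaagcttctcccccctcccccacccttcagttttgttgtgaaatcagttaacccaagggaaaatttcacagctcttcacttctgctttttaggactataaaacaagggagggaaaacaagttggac
Il33, upstream start: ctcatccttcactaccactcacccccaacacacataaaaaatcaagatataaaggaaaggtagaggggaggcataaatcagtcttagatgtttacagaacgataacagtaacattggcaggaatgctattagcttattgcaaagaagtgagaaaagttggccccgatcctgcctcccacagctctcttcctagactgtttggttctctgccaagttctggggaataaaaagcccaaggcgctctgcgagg
Il33, downstream start: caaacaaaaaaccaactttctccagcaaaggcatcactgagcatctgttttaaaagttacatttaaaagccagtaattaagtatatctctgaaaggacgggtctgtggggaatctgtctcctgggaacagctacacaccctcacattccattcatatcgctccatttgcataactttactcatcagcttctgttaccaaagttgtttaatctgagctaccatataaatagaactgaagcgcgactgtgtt
Il1rap: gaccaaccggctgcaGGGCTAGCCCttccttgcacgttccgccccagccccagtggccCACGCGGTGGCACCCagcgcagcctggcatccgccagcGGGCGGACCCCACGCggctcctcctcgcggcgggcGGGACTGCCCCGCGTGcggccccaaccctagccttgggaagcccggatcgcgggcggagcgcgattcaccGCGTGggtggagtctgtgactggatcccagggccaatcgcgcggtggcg
The *Il1a* window, at chr2:129309973-129310222 on the minus strand, held 1 AP-1 match, TGACTCA, 12 to 6 bases before the start. No match was found for *Il1b* (chr2:129371140-129371389, minus strand), nor for *Il33* at chr19:29924863-29925112 or chr19:29945540-29945789, both on the plus strand. The *Il1rap* window (chr16:26581455-26581704, plus strand) held 6 NF-κB matches, several of which overlap each other or an AhR core, and 4 AhR cores. Of all 32851 mouse promoter windows of this length, 45.8% held the NF-κB letters, 6.75% the AP-1 letters and 28.2% the AhR core. Of the 15 windows of the 10 members, 5 held the NF-κB letters, 2 the AP-1 letters and 5 the AhR core. These are matches of letters in a short window and say nothing of binding in these cells.

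The other inflammasome cytokine, *Il18* (chr9:50554827-50581840), was low and moved with no direction. It ranged from 0.985 to 2.34 CPM over the 12 libraries, was higher with CRE in 2 of 6 pairs and lower in 4, and its paired log2 fold change over both genotypes was 0.01 with a 95% interval of -0.46 to 0.47. *Casp1* (chr9:5298517-5307265), which encodes the protease that matures IL-1β and IL-18, was at 5.54, 1.65 and 1.06 CPM in AhR f/f PBS libraries 1, 2 and 3 and at 6.36, 2.59 and 1.52 CPM with CRE. Its levels in Sftpc-Cre cells were 5.39, 1.63 and 2.33 CPM with PBS and 5.17, 2.81 and 3.62 CPM with CRE. Library 1 was again the highest of each group. *Casp1* was higher with CRE in 5 of 6 pairs, but the paired log2 fold change of 0.45 ± 0.14 over both genotypes did not pass the test (adjusted p = 0.134).

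Of the inhibitors, *Il1rn* (chr2:24336853-24351494), the gene of the receptor antagonist, stood at 11.6, 5.89 and 3.66 CPM in AhR f/f PBS libraries 1, 2 and 3 and at 19.4, 5.83 and 8.35 CPM with CRE. Sftpc-Cre libraries stood at 8.79, 3.47 and 8.51 CPM with PBS and at 12.8, 7.88 and 10.9 CPM with CRE. It was higher with CRE in 5 of 6 pairs, and the groups overlapped in both genotypes. The paired log2 fold change over both genotypes was 0.67 ± 0.18, with an adjusted p of 0.0795 by edgeR and 0.00259 by DESeq2 with the same pairing, which called 9.72% of all genes. Without pair 2 of AhR f/f cells, the only pair without an increase, edgeR gave 0.83 and an adjusted p of 0.0435. In that fit 754 of all genes were called. The decoy receptor gene *Il1r2* (chr1:40074079-40125231) was close to the limit of counting, with 4 to 103 counts per library. In Sftpc-Cre libraries 1, 2 and 3 it had 45, 27 and 31 counts with PBS and 21, 12 and 8 counts with CRE, so these groups did not overlap (0.571 to 0.328 CPM against 0.267 to 0.105 CPM). Of all genes, 11.8% separated in this way in Sftpc-Cre cells, in either direction. In AhR f/f cells the counts were 103, 51 and 4 with PBS and 45, 45 and 8 with CRE. *Il1r2* was lower with CRE in 5 of 6 pairs, with a paired log2 fold change of -0.85 ± 0.38 over both genotypes (adjusted p = 0.272).

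Among the receptors, *Il1r1* (chr1:40225080-40317257), the signalling receptor of IL-1α and IL-1β, was at 27.2, 22.7 and 26.2 CPM in AhR f/f PBS libraries 1, 2 and 3 and at 26.2, 17.7 and 19.6 CPM with CRE. Those of Sftpc-Cre cells were at 26.9, 39.2 and 24.7 CPM with PBS and at 25.9, 31.7 and 21.4 CPM with CRE. The groups overlapped in both genotypes. *Il1r1* was lower with CRE in 6 of 6 pairs, with ratios between 0.747 and 0.961 (exact permutation test over pairs, p = 0.03125, the smallest possible). The share of all genes with 6 of 6 pairs in the same direction was not computed. In the paired edgeR fit over both genotypes, 20.3% of all genes had an unadjusted p below 0.05. The paired log2 fold change over both genotypes was -0.23 ± 0.07. It missed the threshold in edgeR (adjusted p = 0.0925) and passed it in DESeq2 (adjusted p = 0.0315). *Il1rl1* (chr1:40429570-40465415), which encodes the IL-33 receptor ST2, lies 112312 bases downstream of *Il1r1* in the receptor cluster of chromosome 1. It varied from 1.90 to 13.8 CPM, was highest in library 1 of each group, and was higher with CRE in 4 of 6 pairs. Its paired log2 fold change over both genotypes was 0.26 with a 95% interval of -0.15 to 0.68. *Il1rap* (chr16:26581704-26730117), the accessory chain shared by both receptors, stayed between 0.911 and 1.21 times the PBS level across pairs. Its interval for CRE against PBS over both genotypes was -0.09 to 0.24 on the log2 scale.

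The second question was whether these genes differed between the genotypes. No group carried Cre recombinase without the floxed gene, so an effect of AhR deletion cannot be told apart from an effect of Cre itself. No member was called by edgeR for the contrast of genotypes (Sftpc-Cre over AhR f/f) with PBS (0 of 10, against 0.15% of all genes), with CRE (0 of 10, against 0.17%) or over both treatments (0 of 10, against 0.631%). The count at an unadjusted p below 0.05 was also 0 in these 3 comparisons, where 8.37%, 5.95% and 9.93% of all genes passed, and DESeq2 called 0 of 10 in each, against 1.18%, 0.844% and 2.53%. The study's rule also called 0 of 10 in each, against 4.1%, 3.42% and 4.11% of all genes. For *Il33*, the log2 fold change was -0.27 (95% interval -0.93 to 0.39) with PBS and -0.37 (-1.03 to 0.29) with CRE. For *Il1r1* it was 0.25 (-0.21 to 0.72) with PBS and 0.32 (-0.15 to 0.78) with CRE. For *Il1a* it was -0.91 (-3.56 to 1.74) with PBS, and its sign turned to 0.14 ± 0.61 with a replicate block and to 1.23 ± 0.48 (adjusted p = 0.617) without the libraries numbered 1. *Il1rap* was the only member whose genotype groups did not overlap, a pattern seen for 11% of all genes under CRE and 14% under PBS. It was at 16.1, 14.6 and 13.5 CPM in AhR f/f CRE libraries 1, 2 and 3 and at 10.0, 13.0 and 11.2 CPM in Sftpc-Cre CRE libraries. The difference of -0.37 ± 0.19 did not pass the test (adjusted p = 0.908), and the exact permutation p of 0.10 is the smallest that 3 against 3 libraries allow. With PBS the *Il1rap* groups overlapped, at 15.6, 13.4 and 11.2 CPM against 8.73, 14.3 and 11.7 CPM.

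The third question was whether the response to CRE differed between the genotypes. No member was called for the difference of the CRE response between genotypes, with or without pairing, and none had an unadjusted p below 0.05 in either fit, where 3.7% of all genes did without pairing and 9.09% with it. No gene of the whole table passed the adjusted threshold of edgeR in either fit (0%), and DESeq2 called 0 members against 0.112% of all genes without pairing and 0.475% with it. The study's rule, without pairing, called 0 members against 2.3% of all genes. In the paired fit the difference for *Il33* was -0.08 on the log2 scale, with a 95% interval of -0.29 to 0.12. It was 0.41 (-0.42 to 1.24) for *Il1a* and 0.11 (-0.62 to 0.83) for *Il1b*. For *Il33*, then, a difference of responses beyond 0.29 in either direction lay outside the interval, whereas for *Il1a* a response 2 times as large in Sftpc-Cre cells remained inside it.

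*Il1a*, *Il1b* and *Casp1* followed the leukocyte markers from library to library, but also other marker lists. Taking each library's deviation from its group mean on the log2 scale, Pearson's r with the summed 9 leukocyte markers over the 12 libraries was 0.943 for *Il1a*, 0.972 for *Il1b* and 0.973 for *Casp1*. It was 0.818 for *Il1rn*, 0.835 for *Il1r2*, 0.735 for *Il18* and 0.449 for *Il1rl1*. It was near 0 for *Il1r1* (0.125) and *Il1rap* (0.102), and negative for *Il33* (-0.779). For *Il1a*, *Il1b* and *Casp1*, r was also 0.951 to 0.962 with the alveolar macrophage markers without *Lyz2*. It was 0.901 to 0.973 with mast cell and basophil markers, 0.738 to 0.847 with endothelial markers and 0.616 to 0.775 with neutrophil markers. With fibroblast markers it was 0.046 to 0.201, and with AT2 markers -0.385 to -0.242. These values describe 12 libraries that fall into 4 groups and share library numbers, and carry no test. Of the 7 marker lists compared in this way, *Il1rl1* followed the 7 endothelial markers most closely, with r = 0.937, against which *Il33* had r = -0.952. With the AT2 markers, the highly counted *Sftpc* among them, *Il33* had r = 0.676. *Il1r1* had its highest value with the 9 fibroblast markers, 0.651.

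**Figure D3:**
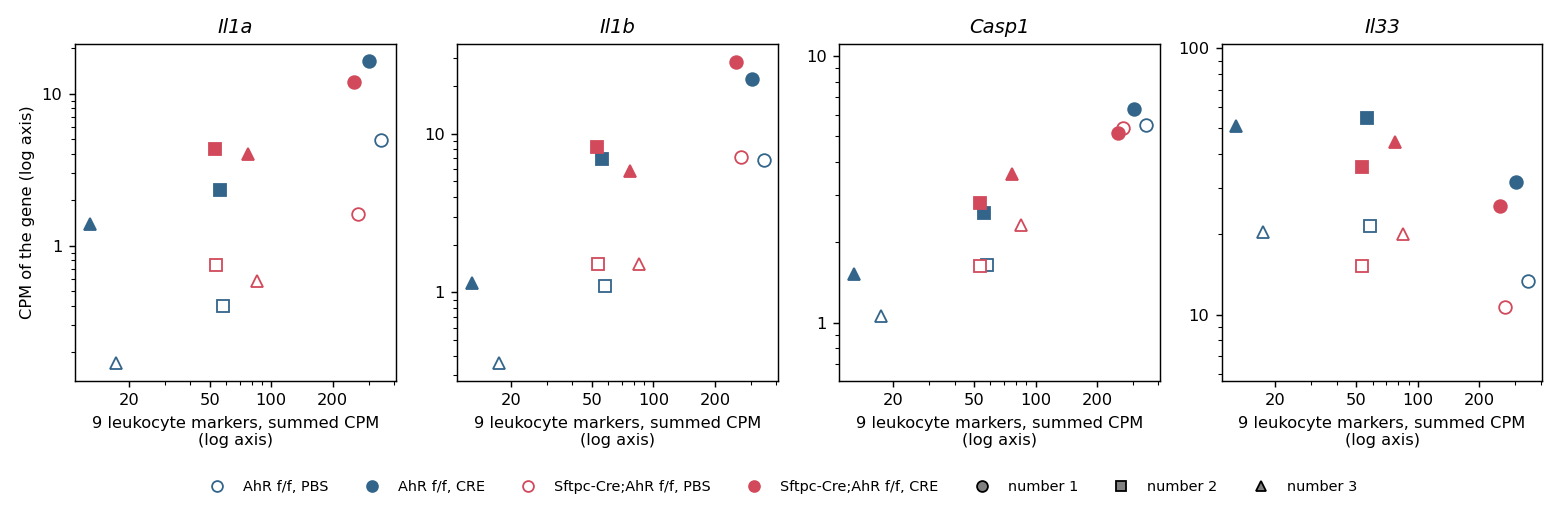
Level of *Il1a*, *Il1b*, *Casp1* and *Il33* (y axes, CPM on log axes) against the summed level of 9 leukocyte markers (x axes, CPM on log axes) in the 12 libraries; open points are PBS, filled points CRE, blue AhR f/f, red Sftpc-Cre, and shapes give the library number. *Il1a*, *Il1b* and *Casp1* rise with the markers, *Il33* falls, and filled points of *Il1a*, *Il1b* and *Il33* lie above the open point of the same shape and colour.

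Marker lists were also compared between the PBS and CRE libraries of each pair. The summed leukocyte markers were at 0.739 to 0.997 times the PBS level in the 6 pairs, lower with CRE in each. With *Lyz2* set aside, since AT2 cells express it strongly (2862 to 5148 CPM), the other 11 alveolar macrophage markers summed to 0.844 to 0.923 times the PBS level. Of all 12 macrophage markers, 6 were lower and 1 was higher with CRE in the paired test over both genotypes, in which 6.59% of all genes were called. *Siglecf*, *Mrc1*, *Ear2*, *Itgax*, *Mertk* and *Fabp4* fell, while *Adgre1*, the F4/80 gene, rose by a log2 fold change of 1.92 ± 0.17 (adjusted p = 0.00139). Of 9 leukocyte markers 1, *Laptm5*, fell and 0 rose, and of 8 neutrophil markers 1, *Mmp8*, rose. Of 6 tested mast cell and basophil markers 1 rose, of 9 fibroblast markers 4 fell, and of 10 AT2 markers 4 fell and 2 rose. Of 6 club and ciliated cell markers 1 fell, as did 1 of 6 tested markers of group 2 innate lymphoid cells. Of 7 endothelial markers 0 were called. The summed neutrophil markers were at 0.832 to 1.80 times the PBS level, higher in 4 of 6 pairs. The summed mast cell and basophil markers, higher with CRE in 6 of 6 pairs, stood at 3.56 to 19.1 CPM, with *Mcpt4* at 0 in all 12 libraries, and were at 1.01 to 1.24 times the PBS level. For AT2 cells the ratios were 0.856 to 0.877 in the AhR f/f pairs and 1.01 to 1.04 in the Sftpc-Cre pairs. The AT2 sum, 4497 to 9108 CPM over the 12 libraries, includes *Sftpc* at the level given above. A sum without *Sftpc* was not made. Of the 10 AT2 markers, 0 were called for the difference of the CRE response between genotypes in the paired fit (0% of all genes). For the other lists the ratios were 0.863 to 1.05 for endothelium, 0.739 to 0.871 for fibroblasts, 0.679 to 0.739 for AT1 cells and 0.750 to 0.935 for club and ciliated cells. For group 2 innate lymphoid cells the ratios were 0.678 to 0.840 with *Areg*, which stands in that list as well as among the IL-1 responsive genes, and 0.805 to 0.9995 without it. Of 9 AT1 markers, 3 were called lower over both genotypes without pairing and 5 with it, against 1.1% and 6.59% of all genes called in either direction. Which cells gave the *Il1a* and *Il1b* transcripts was not tested.

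The genes whose levels ran most closely with the 3 members of smallest p were named by Pearson's r of log2 CPM over the 12 libraries, which share 4 groups and their library numbers. For *Il1a* they were *Tnfrsf1b* (0.974), *Ccl3* (0.966) and *Clec4e* (0.957), a TNF receptor, a chemokine and a lectin receptor of myeloid cells. For *Il1b* they were *Ccl3* (0.982), *Adgre1* (0.974) and *Ccl22* (0.963). For *Il33* they were *Nab1* (0.975), *Gm10252* (0.966) and *Ppp2r5d* (0.961), none of which was shared with the other 2 cytokines. *Il1a* and *Il1b* had r = 0.947 with each other, while *Il33* had r = 0.266 with *Il1a* and 0.127 with *Il1b*. After removal of the group means these were 0.935, -0.841 and -0.818. The 3 cytokines thus shared the direction of the CRE response, but *Il33* did not share the order of libraries within groups with *Il1a* and *Il1b*.

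Other IL-1 family genes were read from lists of pathway genes, which were chosen with earlier results of these data known. Of 5 further family cytokines, only *Il1f6* (IL-36α) and *Il1f9* (IL-36γ) had enough counts to be tested. *Il1f9* was at 9.18, 8.13 and 8.63 CPM in AhR f/f PBS libraries 1, 2 and 3 and at 20.5, 17.5 and 16.5 CPM with CRE. In Sftpc-Cre cells it was at 9.86, 6.86 and 10.2 CPM with PBS and 16.2, 15.5 and 22.8 CPM with CRE. No PBS library reached a CRE library, and library 1 did not stand apart. Within a genotype, PBS and CRE groups did not overlap for 16.5% of all genes in AhR f/f cells and 11.8% in Sftpc-Cre cells. The log2 fold change over both genotypes was 1.04 ± 0.14 without pairing (adjusted p = 0.00422) and 1.04 ± 0.08 with it (adjusted p = 0.000879). *Il1f6* had 0 to 4 counts in the 6 PBS libraries and 8 to 31 in the 6 CRE libraries, and did not pass the test (adjusted p = 0.0621, paired).

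Of 7 further receptors and regulators, 5 were tested. *Il18rap*, the accessory chain of the IL-18 receptor, rose with CRE by 0.57 ± 0.09 in the paired fit over both genotypes (adjusted p = 0.0141). It was 1 of the 5 called there, against 6.59% of all genes. *Il18r1*, which encodes the binding chain of that receptor and begins 136 bases beyond the annotated end of *Il1rl1*, was the only IL-1 family gene of these lists called between genotypes. It was at 109, 110 and 132 CPM in AhR f/f PBS libraries 1, 2 and 3 and at 197, 176 and 177 CPM in Sftpc-Cre PBS libraries. With CRE it was at 109, 118 and 147 CPM against 197, 185 and 193 CPM. The genotypes did not overlap under either treatment, as for 14% of all genes with PBS and 11% with CRE. The log2 fold change over both treatments was 0.63 ± 0.08 (adjusted p = 0.00495), where 0.631% of all genes were called. Neither treatment alone passed (adjusted p = 0.0724 with PBS and 0.111 with CRE).

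Of 21 tested inflammasome and processing genes, 0 were called for CRE over both genotypes by edgeR in either fit, where 2 of them had an unadjusted p below 0.05 without pairing and 5 with it, against 11.1% and 20.3% of all genes. These 5 were *Casp4*, *Naip2*, *Casp8* and *Panx1*, with values above 0, and *Pycard*, the adaptor gene of the inflammasome, with a value of -0.28 ± 0.08 (adjusted p = 0.101). The gene of the list with the highest CPM, which is not scaled to transcript length, was *Capn2*, a calpain gene, at 588 to 766 CPM. Of 32 genes of MyD88 and NF-κB signalling, 4 were called higher without pairing and 8 with it, and 0 lower, against 1.1% and 6.59% of all genes called in either direction. They were *Ikbkg*, *Nfkb2*, *Nfkbia* and *Nfkbiz* in both fits, and *Nfkb1*, *Rel*, *Mapk9* and *Fosl1* with pairing alone. *Nfkbiz*, an atypical IκB that IL-1 is known to induce, went from 18.6 to 28.8 CPM in PBS libraries to 50.1 to 77.4 CPM in CRE libraries, with a paired log2 fold change of 1.54 ± 0.06 (adjusted p = 8.38e-05). *Nfkbia*, the inhibitor that NF-κB induces against itself, rose by 0.96 ± 0.04 (adjusted p = 0.000126). The other 6 rose less, from 0.22 for the kinase gene *Mapk9* to 0.86 for *Ikbkg*, the regulatory subunit of the IκB kinase. The receptor-proximal genes *Myd88* (0.16 ± 0.06, adjusted p = 0.179) and *Irak4* (0.07 ± 0.07, adjusted p = 0.642) did not pass.

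Of 25 genes known to respond to IL-1, 12 were called higher and 0 lower over both genotypes without pairing, and 20 higher and 1 lower with it, against the same 1.1% and 6.59% of all genes. They had a median paired log2 fold change of 1.55 beside -0.000987 for all genes. The neutrophil chemokine genes *Cxcl1* (3.03 ± 0.23), *Cxcl2* (3.54 ± 0.15) and *Cxcl5* (3.64 ± 0.22) rose, as did *Ccl20* (2.72 ± 0.17), *Saa3* (3.69 ± 0.34) and *Lcn2* (1.64 ± 0.11), here with paired values. The other 6 called without pairing were *Cxcl3*, *Csf2*, *Csf3*, *Bcl3*, *Zc3h12a* and *Steap4*, and their paired values ran from 0.53 for *Bcl3* to 2.92 for *Cxcl3*. *Areg*, the gene of the growth factor amphiregulin, was the one that fell, by 0.59 ± 0.05 on the log2 scale. Between genotypes over both treatments 1 of these 25 genes was called, against 0.631% of all genes. *Ptgs2*, the cyclooxygenase-2 gene, was at 452 to 645 CPM in AhR f/f PBS libraries against 251 to 303 CPM in Sftpc-Cre PBS libraries, and at 797 to 879 CPM against 314 to 449 CPM with CRE. Its log2 fold change between genotypes was -1.06 ± 0.11 over both treatments (adjusted p = 0.000974). Many of these genes also respond to other signals, and the part of IL-1 in their change was not tested. The list was chosen with earlier results of these data known, and the study itself reported *Cxcl2*, *Ccl20* and *Ptgs2* as changed. The share of its genes called therefore only describes the list and is not independent evidence.

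**Figure D4:**
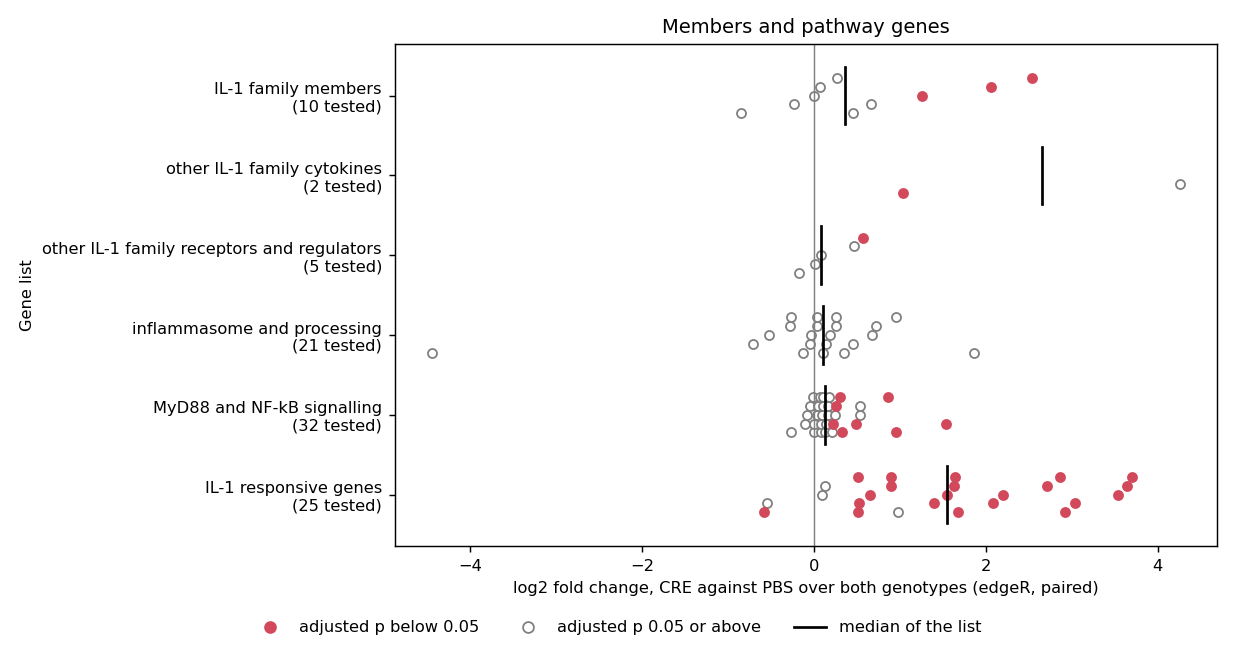
Paired log2 fold change of CRE against PBS over both genotypes (x axis) for every tested gene of the 10 members and of 5 pathway lists (y axis); filled red points passed an adjusted p of 0.05, open points did not, and black bars are list medians. Points of the IL-1 responsive genes lie mostly to the right with a median of 1.55, and the inflammasome list has no filled point.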

How the data were processed

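RNA-seq libraries of cultured AT2 cells were made and sequenced by the authors, 3 in each of 4 groups. Reads were aligned with STAR 2.7.2b to GRCm38, and the deposited counts per gene, which the authors took from Salmon, are whole numbers without normalization. The deposited FPKM values were made by the authors from the counts. The study's methods name RefSeq, through Partek, for annotation, while the deposited gene IDs are Ensembl IDs; all 55450 were found in GENCODE M21, which gave symbols and positions, and which annotation made the counts was not settled. Whether counting used strand is not stated, so reads of *Il1a* and its antisense partner *Gm14023* (222 shared exon bases), of *Il1b* and *Il1bos* (25) and of *Il1rap* and *Gm20319* (552) may be mixed.

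The 10 members, the pathway and marker lists and the motifs were chosen with earlier results of these data known. Groups came from the labels. Counts were scaled by TMM and filtered with filterByExpr (minimum count 10) in edgeR 4.0.16 under R 4.3.3, and CPM values are after TMM. One fit of 4 group means to all 12 libraries was tested by quasi-likelihood F, with p-values adjusted after Benjamini and Hochberg and a threshold of 0.05; the study's rule was applied with limma 3.58.1 (log2 CPM, prior count 2). DESeq2 1.42.0 was an alternative. Pairs were compared on log2(CPM + 0.5). Named genes were all members, *Ahr*, pathway genes called by edgeR in any comparison and, for the 3 members of smallest p, the 3 most correlated genes; *Cyp1b1*, *Il1f6*, *Myd88*, *Irak4*, *Casp4*, *Naip2*, *Casp8*, *Panx1*, *Pycard* and the cell markers were named after their values were seen.

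Whether library numbers pair PBS with CRE was checked on 14009 genes with a mean count of at least 100. Deviations from group means correlated at 0.728, 0.415 and 0.651 for the same numbers in AhR f/f cells and, for Sftpc-Cre;AhR f/f cells, at 0.595, 0.537 and 0.327, so paired values are given for CRE responses. Between genotypes they were 0.410, 0.0625 and 0.0955 for numbers 1, 2 and 3 with PBS and 0.403, -0.0185 and 0.0868 with CRE, so number 1 deviated together and not every number did, and the genotype comparisons were left unpaired. The tests were first run on simulated counts that used the same setting of spread for every gene, whereas the members differed in spread. No result above rests on that run. Promoter sequences came from RefSeq (GRCm38.p6), with 15 windows for the 10 members. Protein sequences were not analysed here. Python 3.11.15 was used for figures.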

Additional observations from a re-analysis of the deposited data

How the results depend on the processing

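The members called for CRE against PBS changed with the tool and the pairing, in number and never in direction for *Il1a*, *Il1b* and *Il33*. In AhR f/f cells, 0 members were called by edgeR, 1 by DESeq2, 1 by the study's rule, 1 with a replicate block over all 12 libraries, 3 with the replicate block within genotype, and 1 without the 4 libraries numbered 1 (2 with pairing). The calls over all genes moved too, at 48, 409, 848, 137, 748 and 52 (139 with pairing) in the same order. In Sftpc-Cre cells the member counts were 0, 1, 2, 1, 3 and 0 (2 with pairing), and those of all genes 54, 254, 696, 112, 439 and 43 (115). Over both genotypes they were 1, 1, 3, 3, 3 and 2 (3 with pairing), against 226, 740, 828, 529, 1358 and 166 (449) of all genes. Pairing with limma-trend called 3 in each (801, 474 and 1453 of all genes), and with DESeq2 3, 3 and 5 (1586, 1018 and 2004). The alternatives without the libraries numbered 1, with pairing in limma or DESeq2 and without each pair were chosen after seeing the data. Without single libraries, unpaired, the calls were 0 in each genotype and 0 to 1 over both. Without single pairs, in the paired fit, they were 2 to 3 in AhR f/f cells, 3 in Sftpc-Cre cells and 3 to 4 over both. The genotype comparisons and the difference of responses had 0 members called under every alternative run, the replicate block included, under which *Il33* was at -0.28 (adjusted p = 0.392) with PBS and -0.37 (adjusted p = 0.466) with CRE. Between genotypes the deviations of libraries numbered 1 correlated at 0.410 with PBS and 0.403 with CRE, and those of the other numbers at -0.0185 to 0.0955.

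Directions turned only for values that passed no test, and the cause was not tested. Under PBS the genotype difference of *Il1a* was 0.30 with limma-trend and the study's rule, 0.14 with the replicate block and 1.23 without the libraries numbered 1, and -1.47 to 1.79 without single libraries; under CRE it was -0.69 to 1.88. That of *Il1r2* under PBS was 0.049 with limma-trend and the study's rule, and -1.27 to 0.13 without single libraries. That of *Il1rap* under PBS was 0.083 without the libraries numbered 1. For CRE in AhR f/f cells, *Il1r2* was at 0.233 without the libraries numbered 1 and with pairing, and at -1.33 to 0.23 without single libraries or pairs, and *Casp1* at -0.42 to 1.37. *Il1r1* in Sftpc-Cre cells was at -0.36 to 0.030. Over both genotypes *Il18* was at 0.0073 with limma-trend, the study's rule and paired limma-trend, 0.0053 with the replicate block within genotype, 0.0081 and 0.016 without the libraries numbered 1 (unpaired and paired), 0.0019 with paired DESeq2 and -0.17 to 0.17 without single libraries or pairs. The ranges were -0.19 to 0.51 for *Il1rl1*, -0.024 to 0.15 for *Il1rap* and -0.055 to 0.84 for *Casp1*. With 3 libraries a group, the low counts of *Il1r2* and *Il18* limit what could be detected.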
